A study of Drosophila melanogaster with 4 samples.

Results

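The mitochondrial respiratory chain and ATP synthase were followed in whole early pupae of Drosophila melanogaster in which Dop1R2, a D1-like dopamine receptor, was knocked down by RNA interference throughout the body. The genes were taken by symbol from the annotation of the array, as probe sets that carry 1 gene name and whose name starts with ND-, Sdh, UQCR-, COX or ATPsyn, or is levy, cype, RFeSP, Cyt-c-p or Cyt-c1. This gave 73 of 13966 probe sets, for 71 of 10843 genes that have a probe set of their own. Complex I had 31 of them, complex II 6, complex III 6, complex IV 13 and ATP synthase (complex V) 14, and the last one, Sdhaf3, is an assembly factor of complex II and not a subunit. No probe set carried the name Cyt-c-p alone, so the somatic cytochrome c was not analysed here. Of the 71 genes, 69 were bright enough to be tested. ND-B8 (22.9 and 25.9 in the Dop1R2 RNAi arrays, 37.2 and 15.1 in the controls, in arbitrary units of array intensity) and COX6AL2 (17.6 and 16.8 against 33.7 and 24.9) were not. Sdhaf3 was tested and did not pass (72.7 and 61.2 against 77.4 and 78.0, adjusted p = 0.724 in limma).

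The arrays were 2 of Dop1R2 RNAi pupae (UAS-dsDop1R2/+;Act5C-Gal4/+) and 2 of control pupae (w1118;Act5C-Gal4/+), each from a pool of 10 to 20 pupae that had been reared at 29 °C. The driver, Act5C-Gal4, is ubiquitous and both groups carry it according to the labels, whereas a legend of the study lists a control with the UAS construct and a TM6B balancer in place of the driver. The labels do not say which dsRNA line was crossed, nor the sex of the pupae, and the knockdown itself could not be checked because no probe set carries the name Dop1R2 alone. The log2 signals correlated at 0.937 between the Dop1R2 RNAi arrays and 0.940 between the control arrays, and at 0.843 to 0.913 across the groups. In whole pupae, fewer cells of a type and less RNA per cell cannot be told apart.

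The respiratory chain passes electrons from NADH (complex I) and succinate (complex II) through ubiquinone to complex III, cytochrome c and complex IV, where oxygen is reduced, and ATP synthase uses the proton gradient that results. Most of its subunits are encoded in the nucleus and are made in nearly all cells, with high levels in muscle. Drosophila also carries duplicates of many of these genes, marked in the symbol by a final L (for "like"), and many of the duplicates are known for expression mainly in testis. Here 17 genes were counted as such paralogues and 53 as standard subunits. ND-MNLL was counted as standard although its symbol ends in L, since MNLL is the subunit's own name.

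The standard subunits were on the whole slightly lower in Dop1R2 RNAi pupae, but none passed the test. The test was limma on log2 signals, with p adjusted over 8749 probe sets by the Benjamini-Hochberg method and a threshold of 0.05. Of all probe sets tested, 121 (1.38%) were higher in Dop1R2 RNAi pupae and 9 (0.103%) were lower. Of the 52 standard subunits tested, 0 passed in either direction. At an unadjusted p under 0.05, 1 was lower and 0 were higher. Of all 8749 probe sets, 482 (5.51%) were lower and 659 higher at that level. The methods' test per probe set found 0 of the 52 at that level. The log2 fold changes were below 0 for 48 of 52, with a median of -0.27 (quartiles -0.37 and -0.13), while the median of all probe sets was -0.04 and 53.9% of them were below 0. The subunits have transcripts on the same 4 arrays, so they are not independent of each other, and the median is a description.

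**Figure D1:**
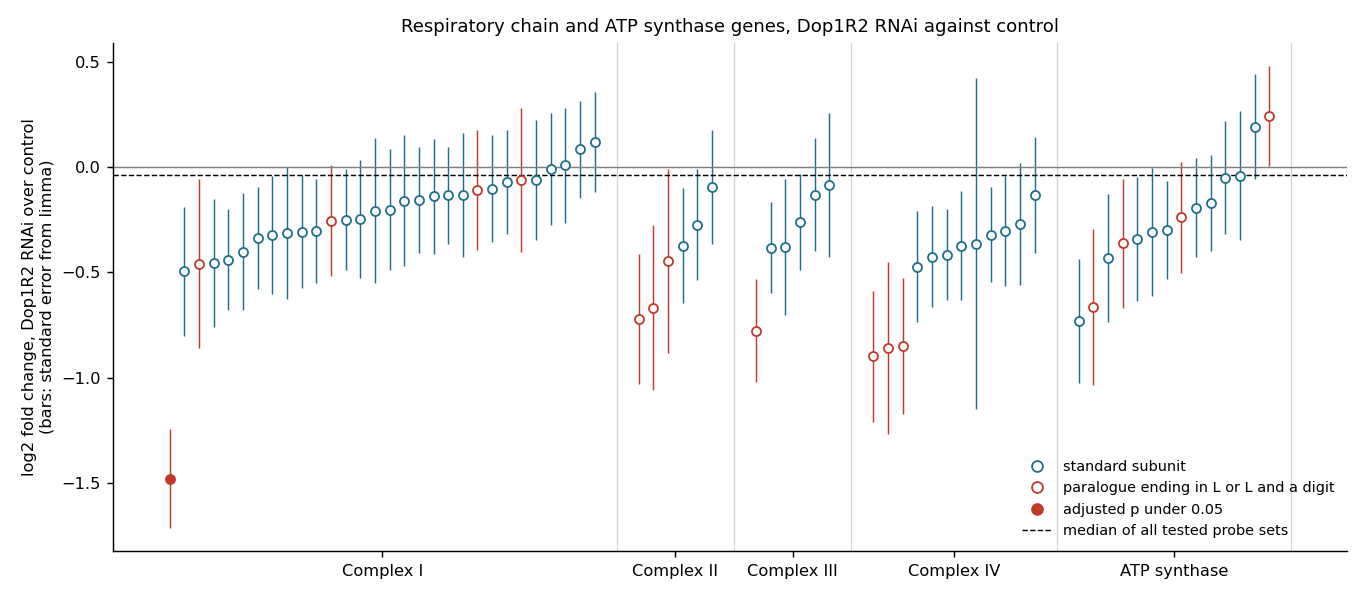
Log2 fold change (Dop1R2 RNAi over control, vertical axis) of each tested subunit of the respiratory chain and ATP synthase with the standard error from limma, grouped by complex and ordered by value, with standard subunits in blue and paralogues in red. Below 0 lie 48 of 52 standard subunits and 15 of 16 paralogues, and the only filled point, ND-24L at -1.48, is the only one that passed the test.

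The 5 complexes had similar medians among their standard subunits. The median log2 fold change was -0.20 in complex I (25 genes tested), -0.27 in complex II (3), -0.26 in complex III (5), -0.36 in complex IV (9) and -0.25 in ATP synthase (10). Every standard subunit of complexes II, III and IV was below 0, as were 22 of 25 in complex I and 9 of 10 in ATP synthase. Without Dop1R2 RNAi replicate 2 the medians of complexes I, III and V turned above 0 (0.10, 0.05 and 0.09), and those of complexes II and IV were -0.03 and -0.08.

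In complex I, the entry point for electrons from NADH, the signals of ND-ACP, the mitochondrial acyl carrier protein, were 1262 and 716 in the Dop1R2 RNAi arrays and 1544 and 1163 in the control arrays. One Dop1R2 RNAi array lay between the controls and the other far below them, and the log2 fold change was -0.50 ± 0.31 (SE, n = 2 against 2, limma adjusted p = 0.525). ND-51, the flavoprotein that binds NADH, gave 564 and 438 against 506 and 415, a log2 fold change of 0.12. ND-B16.6, the fly counterpart of human GRIM-19, gave 2014 and 1375 against 1644 and 1497, a log2 fold change of 0.09. The groups overlapped for ND-51 and ND-B16.6. Both have the largest positive values of the complex, and both turned below 0 without Dop1R2 RNAi replicate 1 (-0.06 and -0.19), ND-51 also without control replicate 2 (-0.02).

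In complex II, which is shared with the tricarboxylic acid cycle, SdhB, the iron-sulphur subunit, gave 421 and 281 with RNAi against 498 and 398 without, and the groups overlapped. In complex III, UQCR-6.4, a small subunit, gave 2100 and 1487 against 2433 and 2179, with a log2 fold change of -0.38 ± 0.22 (SE, limma adjusted p = 0.496). It was the only standard subunit of the complex whose groups did not overlap. The catalytic subunits Cyt-c1 (1584 and 1095 against 1623 and 1532) and RFeSP, the Rieske iron-sulphur protein (685 and 380 against 771 and 572), each had 1 Dop1R2 RNAi array between the controls and 1 below both.

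In complex IV, cytochrome c oxidase, 3 standard subunits had both Dop1R2 RNAi arrays under both controls. COX5A gave 1679 and 1136 against 2015 and 1705, COX7B gave 1811 and 1091 against 1989 and 1912, and cype, the fly COX6C, gave 2729 and 2040 against 3533 and 2802. Their log2 fold changes were -0.42, -0.47 and -0.42, with limma adjusted p of 0.489, 0.487 and 0.457. COX7C was close to background on 2 of the 4 arrays (10.7 and 50.5 against 42.9 and 20.8), and its standard error of 0.79 on the log2 scale is far above that of the other genes.

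In ATP synthase, ATPsynF, the f subunit of the membrane sector, had the lowest value of all standard subunits. Its signals were 1352 and 762 in the Dop1R2 RNAi arrays and 1856 and 1531 in the controls, so the groups did not overlap. The log2 fold change was -0.73 ± 0.29 (SE, n = 2 against 2), or 1.66-fold lower, with a limma adjusted p of 0.363 and an unadjusted p of 0.042. ATPsynC, which forms the rotating ring, gave 1142 and 757 against 839 and 789 and a log2 fold change of 0.19, which turned to -0.10 without Dop1R2 RNAi replicate 1. The second probe set of ATPsynC, far dimmer, gave -0.12.

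The low values of the standard subunits lay mainly on one array. Dop1R2 RNAi replicate 2 was the lowest of the 4 arrays for 50 of 52 standard subunits, against 28.8% of all probe sets tested. The exceptions were ND-51 and COX7C. Dop1R2 RNAi replicate 1 lay over both controls for 21 of the 52, between them for 23 and under both for 8. Taken as the log2 signal of an array minus the mean of the 4 arrays, the median over the standard subunits was 0.18 in Dop1R2 RNAi replicate 1, -0.44 in replicate 2, 0.26 in control replicate 1 and -0.01 in control replicate 2. The Dop1R2 RNAi arrays differed from each other by a median of -0.63 on the log2 scale (replicate 2 minus replicate 1), more than the groups did. The control arrays differed in the same direction, by a median of -0.27, about as much as the groups did. Replicate 2 was under replicate 1 for 51 of 52 standard subunits in Dop1R2 RNAi, against 45.1% of all probe sets. In the controls it was so for 50 of 52, against 44.5%. Over all probe sets tested, the median of the log2 signal minus the mean of the 4 arrays lay within 0.05 of 0 on each array.

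**Figure D2:**
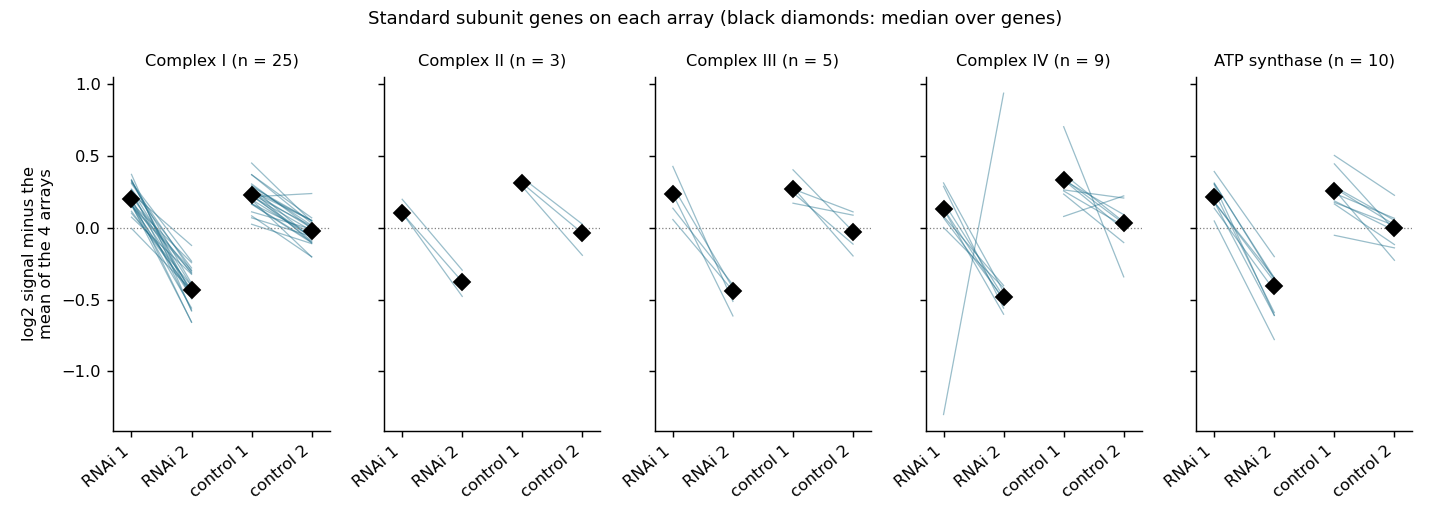
Log2 signal of each standard subunit on each array minus its mean over the 4 arrays (vertical axis), with 1 line per gene within each group, black diamonds for the median and 1 panel per complex. Dop1R2 RNAi replicate 2 lies lowest in every panel, and the line that crosses the others in complex IV is COX7C.

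The median of the standard subunits depended on which arrays were used. Without Dop1R2 RNAi replicate 2 their median log2 fold change was 0.08, with 19 of 52 below 0 and 0 passing, while 1.3% of all probe sets were lower. Without Dop1R2 RNAi replicate 1 the median was -0.56, with 51 of 52 below 0, and 11 passed as lower, against 3.37% of all probe sets. These were ND-ACP, ND-B14.5B and ND-PDSW of complex I, COX5A, COX7B, cype and levy (the fly COX6A) of complex IV, and ATPsynB, ATPsynF, ATPsynO and ATPsyndelta of ATP synthase. In such a fit the single array left in a group is assumed to vary like the other group. The median was -0.13 without control replicate 1 and -0.38 without control replicate 2, and 0 passed in either.

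Both Dop1R2 RNAi arrays were under both controls for 7 of 52 standard subunits, compared with 24% of all probe sets, and over both controls for 0, compared with 21.1%. The 7 were ND-15, ND-PDSW, UQCR-6.4, COX5A, COX7B, cype and ATPsynF. A separation of the groups was thus no more frequent among the standard subunits than among all probe sets.

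Other genes moved with the standard subunits from array to array. The mitochondrial ribosomal proteins (symbols in mRpL and mRpS) translate the subunits encoded in the mitochondrial genome. Their median log2 fold change was -0.21, with 50 of 64 below 0 and 0 passing. At an unadjusted p under 0.05 in limma, 2 were lower, against 5.51% of all probe sets. Dop1R2 RNAi replicate 2 was the lowest array for 55 of the 64. In the other mitochondrial lists, given further below, it was the lowest for 15 of 21 genes of the tricarboxylic acid cycle and pyruvate metabolism. The counts were 14 of 23 in the list of assembly factors, 8 of 16 in that of regulators and 7 of 19 in that of carriers. Of all probe sets tested, 28.8% were lowest on that array. Of the 21 muscle markers looked for, all 16 that matched were tested. They were lowest in Dop1R2 RNAi replicate 2 for 13 of 16, with a median log2 fold change of -0.20 and 0 passing in either direction. The summed signal of the muscle markers was 24955 and 16004 in the Dop1R2 RNAi arrays and 24948 and 20724 in the controls, so it was lowest on the array where the subunits were lowest. Neuron markers, of which 11 of 13 matched and 6 were tested, lay at a median of -0.29 (log2 fold change), with 0 passing in limma and 0 at an unadjusted p under 0.05. Their summed signal was also lowest on that array, with 565 and 364 against 560 and 541, and it was the lowest array for 4 of the 6. The summed signal of the 6 fat body markers that matched, of which 4 were tested, ranged from 20069 to 21079 over the 4 arrays. The part of muscle or neuron content in the level of the subunits was not tested. The ratio of 3′ to 5′ signal of the array's control transcripts was not set apart in this array for actin (2.07 and 1.61 in Dop1R2 RNAi, 2.07 and 1.61 in control) or Gapdh (3.88 and 3.90 against 4.61 and 3.97), and was lowest there for eIF-4a (3.98 and 2.82 against 4.59 and 4.24).

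The paralogues gave the only gene that passed. ND-24L, a duplicate of the 24 kDa flavoprotein subunit of complex I, had signals of 45.5 and 40.1 in the Dop1R2 RNAi arrays and 118.9 and 119.1 in the controls. The arrays of each group lay close together and the groups were far apart. ND-24L was 2.79-fold lower in Dop1R2 RNAi pupae, with a log2 fold change of -1.48 ± 0.23 (SE, n = 2 against 2) and a limma adjusted p of 0.0355. The fold change was between -1.57 and -1.39 whichever array was left out, but the adjusted p was 0.218 without control replicate 1 and 0.141 without control replicate 2. It was also over the threshold without the filter on dim probe sets (0.0858), without the trend in limma (0.0579) and by the methods' test (0.464).

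Of the other 15 paralogues tested, 0 passed. Over all 16 the median log2 fold change was -0.56, 15 were below 0, and 4 were lower at an unadjusted p under 0.05 (ND-24L, UQCR-14L, COX4L and COX7AL), against 5.51% of all probe sets. Both Dop1R2 RNAi arrays were under both controls for 7 of 16, against 24% of all probe sets, and over both for 1, against 21.1%. UQCR-14L, a duplicate of the 14 kDa subunit of complex III, gave 72.1 and 89.4 against 150 and 126, a log2 fold change of -0.78 ± 0.24 (SE, limma adjusted p = 0.263). COX7AL of complex IV gave 27.5 and 36.9 against 64.9 and 54.2, a log2 fold change of -0.90 ± 0.31 (SE, adjusted p = 0.297 in limma). Neither overlapped between the groups.

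For several paralogues the difference lay mainly in control replicate 1. COX4L gave 118 and 121 in the Dop1R2 RNAi arrays against 293 and 159 in the controls (log2 fold change -0.85, limma adjusted p = 0.344). COX5BL gave 54.8 and 88.9 against 184 and 87.1 (log2 fold change -0.86, limma adjusted p = 0.429). SdhBL, a duplicate of the iron-sulphur subunit of complex II, gave 128 and 160 against 307 and 181 (log2 fold change -0.72, limma adjusted p = 0.389). In all 3 the second control was much nearer to the Dop1R2 RNAi arrays than the first, and for COX5BL it lay between them. COX5BL passed without Dop1R2 RNAi replicate 2 (adjusted p = 0.0485).

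SdhAL, a duplicate of the flavoprotein of complex II, gave 34.6 and 29.6 against 70.5 and 36.6 and a log2 fold change of -0.67. ATPsynepsilonL of ATP synthase gave 41.0 and 87.3 against 93.7 and 96.1 and a log2 fold change of -0.66, almost all of it in Dop1R2 RNAi replicate 1. The exception in direction was ATPsynbetaL, a duplicate of the catalytic β subunit. Its signals were 127 and 162 in the Dop1R2 RNAi arrays and 124 and 119 in the controls, with a log2 fold change of 0.24 and a limma adjusted p of 0.692. The Dop1R2 RNAi arrays lay over the controls for this gene, one of them by very little.

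The paralogues and the standard subunits were both most often highest on control replicate 1, but most often lowest on different Dop1R2 RNAi arrays. Control replicate 1 was the highest array for 13 of 16 paralogues, against 28 of 52 standard subunits and 28.1% of all probe sets tested. Dop1R2 RNAi replicate 1 was the lowest array for 9 of 16 paralogues, and for 1 of 52 standard subunits. The median over the paralogues, as the log2 signal minus the mean of the 4 arrays, was -0.35 and -0.17 in the Dop1R2 RNAi arrays and 0.55 and -0.10 in the controls. The median log2 fold change of the paralogues was -0.17 when control replicate 1 was left out, and between -0.84 and -0.44 when any other array was.

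Markers of the male germline had, by their medians, the same order of arrays as the paralogues. Of 24 such markers, 20 matched and 13 were tested. All 13 had a log2 fold change below 0, against 53.9% of all probe sets, with a median of -0.72. Of the 13, 0 passed and 4 were lower at an unadjusted p under 0.05, against 5.51% of all probe sets. Control replicate 1 was the highest array for 13 of 13. The markers too dim to be tested (can, aly, sa, mia, nht, ProtB and Mst57Da) did not share this. Each had its highest signal in a Dop1R2 RNAi array, such as mia (28.5 and 37.6 against 27.7 and 20.3). The summed signal of the 20 markers was 5761 and 7468 in the Dop1R2 RNAi arrays and 16420 and 8210 in the controls, so 1 control pool had about the level of the Dop1R2 RNAi pools and the other far more. Mst84Db, a sperm protein gene, had the largest change among them (329 and 481 against 1959 and 916, log2 fold change -1.75, limma adjusted p = 0.108). The part of germline content in the level of the paralogues was not tested.

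**Figure D3:**
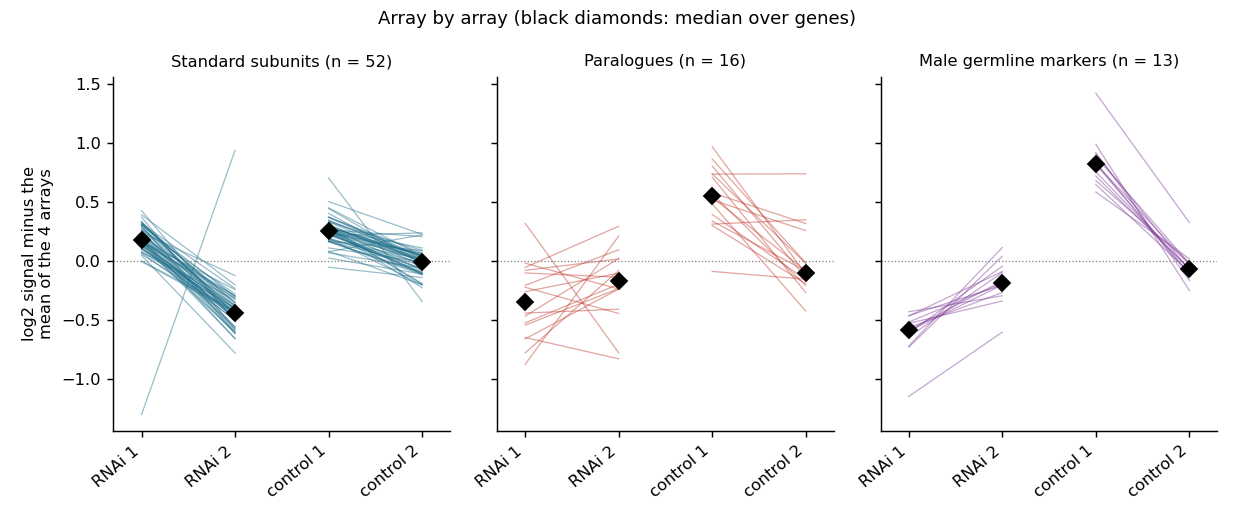
Log2 signal of each gene on each array minus its mean over the 4 arrays (vertical axis), with 1 line per gene within each group and black diamonds for the median, for standard subunits, paralogues and markers of the male germline. The medians are lowest in Dop1R2 RNAi replicate 2 for the standard subunits (-0.44) and highest in control replicate 1 for the paralogues (0.55) and the germline markers (0.83).

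Beside their namesakes, the paralogues were usually lower. In 12 pairs both the paralogue and the standard subunit of the same name were tested, and the log2 fold change was lower in the paralogue in 11, with a median difference of -0.29. The difference ran from -0.72 (COX4L and COX4) to 0.28 (ATPsynbetaL and ATPsynbeta). Each paralogue was dimmer than its namesake in mean signal, such as COX4L (118 and 121 against 293 and 159) beside COX4 (2904 and 1716 against 2752 and 2177). With 32 added to the signals before log2, the median log2 fold change of all tested paralogues moved from -0.56 to -0.38. That of the standard subunits moved from -0.27 to -0.24. The ratio of paralogue to namesake within an array was lower in both Dop1R2 RNAi arrays than in both controls for 2 of 12 pairs, COX4L and ND-B14.5AL. Most of these differences were thus within the spread between arrays. Single signals lay in that order for 24% of all probe sets, and the share for ratios was not computed. The count therefore does not set these 2 pairs apart. In 0 of the 12 pairs are the genes direct neighbours in the annotation. COX5BL and COX5B have 1 protein-coding gene between them, and COX7AL and COX7A have 2.

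**Figure D4:**
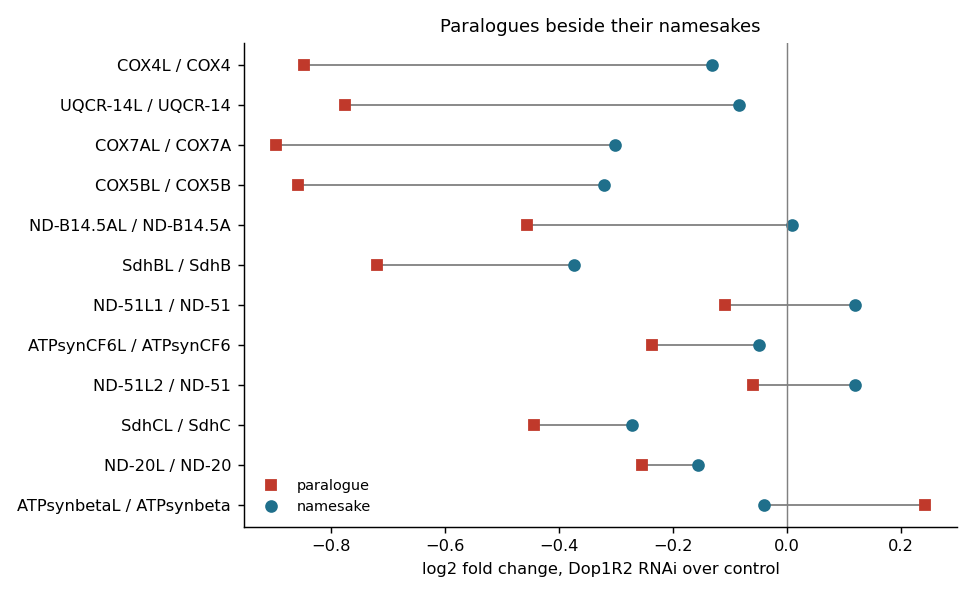
Log2 fold change (Dop1R2 RNAi over control, horizontal axis) of each paralogue (red squares) and of the standard subunit with the same name (blue circles), joined by a line and ordered by the difference. The square lies left of the circle in 11 of 12 pairs, the exception being ATPsynbetaL.

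Of 21 genes of the tricarboxylic acid cycle and of pyruvate and malate metabolism, 2 rose in Dop1R2 RNAi pupae and 0 fell. Of all probe sets, 1.38% rose and 0.103% fell. The median log2 fold change of the 21 genes was -0.01. Besides the cycle and the pyruvate dehydrogenase complex with its regulators, they included PCB, the malic enzymes Men and Men-b, and the pyruvate carrier Mpc1. Pdk encodes pyruvate dehydrogenase kinase, which phosphorylates and inhibits the pyruvate dehydrogenase complex and so limits the entry of pyruvate carbon as acetyl-CoA. Its signals were 419 and 550 in the Dop1R2 RNAi arrays and 69.3 and 108 in the controls, a log2 fold change of 2.47 ± 0.30 (SE, n = 2 against 2, limma adjusted p = 0.0117). PCB encodes pyruvate carboxylase, which turns pyruvate into oxaloacetate. Its signals were 1458 and 2030 against 404 and 428, a log2 fold change of 2.05 ± 0.23 (SE, limma adjusted p = 0.00863). By the methods' test neither gene passed (adjusted p of 0.512 for Pdk and 0.493 for PCB). The groups were far apart for both genes, and the log2 fold changes lay between 1.81 and 2.79 whichever array was left out. Without control replicate 1 the adjusted p was 0.132 for Pdk and 0.154 for PCB, and without control replicate 2 it was 0.0570 and 0.111.

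The other genes tied to the chain did not pass. A list of 23 tested genes held mostly assembly factors, with ttm2, ttm3 and ttm50 as genes of mitochondrial protein import. Of the 23, 0 passed and the median log2 fold change was -0.23. The values ran from -1.08 (ttm2, an import gene) to 0.57 (CG3270). CG3270 (32.1 and 39.2 against 23.6 and 24.2) was bright enough for the filter only in the Dop1R2 RNAi arrays. Of 4 subunits that go by other names and so were outside the selection, ox of complex III (2630 and 1521 against 3734 and 2808) and sun, the ε subunit of ATP synthase (1102 and 661 against 1464 and 1296), were lower at an unadjusted p under 0.05, with log2 fold changes of -0.70 and -0.69 and limma adjusted p of 0.375 and 0.362. The groups did not overlap for either. For blw, the catalytic α subunit, the log2 fold change was -0.05, and for Cyt-c1L it was -0.34.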

How the data were processed

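Biotin-labelled cRNA from 4 pools of pupae was hybridised to Affymetrix DrosGenome1 arrays. The authors ran MAS5, whose version is not given in the sources used here. The deposited intensity of a probe set is linear and scaled within the array (trimmed mean 100.02). Here the 44 control probe sets were dropped, log2 was taken of the signals as they stood, and a probe set was kept if 2 or more of the 4 arrays had it no lower than their 40th percentile, which left 8749 of 13966. Groups were compared in limma 3.58.1 under R 4.3.3, by lmFit and then eBayes with its trend option (2 residual and 4.95 prior degrees of freedom). The methods name Genespring, and a test per probe set on the log2 signals stood in for it as an alternative. The annotation names 1 gene for 12442 probe sets, several for 327 and none for 1197, and 4 probe sets that members share with another gene were not used. ATPsynC and ND-MNLL have 2 probe sets each, of which the brighter was taken. Named genes were those that passed, up to 2 extremes in each direction per complex and the 6 paralogues with the largest change, and any others are examples chosen after their values were seen. The members and lists were chosen with earlier results of these data known. Summaries were made in Python 3.11.15 with numpy 2.4.6 and pandas 2.3.3. Sequences and promoter motifs were not analysed here.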

Additional observations from a re-analysis of the deposited data

How the results depend on the processing

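With 2 arrays per group, an exact permutation of a single gene cannot give a two-sided p below 0.333, so every call rests on the spread that limma shares over genes. Number of respiratory genes that were lower: 1 as reported, 0 without the filter, without the trend, by the methods' test (1 at an unadjusted p under 0.05) and with the replicate block, and 0 to 12 over the fits without 1 array. Over all probe sets, 75 were higher and 3 lower without the filter, 0 and 0 by the methods' test (467 and 323 at an unadjusted p under 0.05), and 27 to 357 higher and 0 to 295 lower without 1 array. The labels do not say whether pools with the same replicate number belong together, and the deviations correlated at 0.151 over 2 pairs. A shared effect of the replicate number was thus not settled. With the replicate numbers as a block in limma, 131 probe sets were higher and 10 lower. In that fit ND-24L had an adjusted p of 0.0567, while Pdk and PCB stayed under the threshold. Without 1 array, the median log2 fold change ranged from -0.56 to 0.079 for the standard subunits, from -0.84 to -0.17 for the paralogues, from -0.59 to 0.026 for all genes of complex III and from -0.41 to 0.075 for all of ATP synthase. Likewise the log2 fold change ranged from -0.10 to 0.49 for ATPsynC, from -0.064 to 0.30 for ND-51 and from -0.19 to 0.36 for ND-B16.6, the 3 genes that changed sign. The cause was not tested. Of 219 alternative values for 17 named genes, 200 kept direction and side of the threshold, 12 lost it, 3 gained it and 4 changed sign. Besides those above, the filter was raised to the 60th percentile, low signals were set to the 20th, 32 was added before log2, and arrays were put on common quantiles or medians.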

Other observations

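A mixed list of 19 genes held carriers, uncoupling proteins and channels, and also the enzyme genes Gpo3, Gpdh1, Dhod, wal and qless. Of the 19, 0 passed, with 1 higher and 1 lower at an unadjusted p under 0.05 in limma. Of all 8749 probe sets, 659 were higher and 482 (5.51%) lower at that level, so these counts do not set the list apart. The higher one was aralar1, the aspartate-glutamate carrier, with signals of 81.8 and 95.2 in the Dop1R2 RNAi arrays and 50.1 and 29.9 in the controls (log2 fold change 1.19, limma adjusted p = 0.195). The lower one was Dic3, a dicarboxylate carrier, with 30.1 and 42.0 against 94.7 and 58.6 (log2 fold change -1.07, limma adjusted p = 0.265). Several genes that resemble a widely used mitochondrial gene had their highest signal in control replicate 1, as most of the respiratory paralogues did. They were mAcon2 (70.8 and 64.3 against 177 and 84.2), Fum3 (37.1 and 48.5 against 96.5 and 52.4), Porin2 (103 and 153 against 292 and 154) and ttm2 (59.7 and 59.8 against 174 and 92.0), chosen after their values were seen. A mixed list of 16 genes held regulators of mitochondrial gene expression and genes of mitochondrial turnover, fusion, fission and protein import. The latter were Pink1, Marf, Opa1, Drp1, Tom20 and Tom40. Of the 16, 0 passed in limma and 0 had an unadjusted p under 0.05, with a median log2 fold change of -0.05.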
